A study of Mus musculus with 20 samples.

Results

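The cells described here are ependymal multiciliated cells among the EGFP+ cells that were sorted from the mouse dentate gyrus (DG) at 3 ages and profiled by single-cell RNA-seq. They were picked by their own transcripts: a barcode counted as ependymal when it held at least 4 unique molecular identifiers (UMIs, each standing for 1 captured transcript) of Ccdc153, Tmem212, Rsph1, Foxj1 and Dynlrb2 together, from at least 3 of these 5 genes. A barcode had to hold 1000 UMIs and 500 genes or more, with mitochondrial genes giving 10% of its UMIs or less, and of 21832 such barcodes 443 met this rule. They were 348 of 13684 cells at P5 (2.54%, exact 95% binomial interval 2.29 to 2.82), 34 of 5351 cells at 12w (0.635%, 0.440 to 0.887) and 61 of 2797 cells at 24w (2.18%, 1.67 to 2.79). Because the rule reads measured values, the levels of these 5 genes and every contrast between the ependymal cells and other cells are descriptions, and no test is attached to them.

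The animals were Nestin-EGFP mice, in which a Nestin promoter drives EGFP, and cells positive for EGFP were collected from the DG by flow cytometry at postnatal day 5 (P5), 12 weeks (12w) and 24 weeks (24w). The gate was set on cells of wild-type mice. Each age is 1 droplet library (10x Genomics), so no difference between ages could be tested against a spread between libraries, and all intervals given below (95%, exact Poisson for levels and ratios, exact binomial for shares) cover counting error only. Cells of 1 library are not replicates of an age. Where 3 values stand together in what follows, they are those of P5, 12w and 24w in this order. The ependymal cells held 453, 54 and 2 UMIs of the female-specific Xist, and 77, 0 and 13 UMIs of the Y-linked Ddx3y, so that in the adult libraries age and sex cannot be told apart.

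Ependymal cells line the walls of the brain ventricles, and each carries a tuft of motile cilia whose beat moves the cerebrospinal fluid. A motile cilium is built on a ring of doublet microtubules around a central pair, with outer and inner dynein arms as motors, radial spokes and the nexin-dynein regulatory complex as regulators of the beat, and intraflagellar transport (IFT) trains that carry parts to the tip. The many basal bodies of such a cell arise from centrioles that are amplified on deuterosomes in the postmitotic precursor, a step under the control of Gmnc, Mcidas and E2F factors, before Foxj1 and RFX factors switch on the genes of the cilium itself. In the mouse forebrain the ependyma matures during the first weeks after birth.

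The summed UMIs of the 5 genes had a median of 24 (4 to 101), 27.5 (5 to 49) and 34 (6 to 99), and all 5 genes were found in 265 of 348, 28 of 34 and 53 of 61 cells. Just inside the rule stood 16, 1 and 1 cells with 4 to 6 UMIs. Just outside it stood 32, 0 and 1 cells that had 3 UMIs or more from 2 genes or more, and the highest sum outside was 10, 2 and 6 UMIs. Most other cells, 11575 of 13336, 5195 of 5317 and 2509 of 2736, had no UMI of any of the 5 genes. When all cells were clustered with the 5 genes left out of the variable genes, 429 of the 443 fell in 1 cluster of 444 cells at a low resolution (0.5). At the resolution of 1.0 they fell in a cluster of 362 cells that held 344 of them, of which 335 were from P5, and a second cluster of 85 cells, all ependymal, that held 29 of the 34 cells from 12w and 56 of the 61 from 24w.

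Ccdc153 (ENSMUSG00000070306), which encodes a coiled-coil protein of the axoneme, stood at 1159 (1111 to 1209), 2739 (2444 to 3060.4) and 2879 (2679 to 3091) CPM in the ependymal cells, where CPM is the gene's UMIs scaled to 1000000 UMIs pooled over the cells of a library. In all other cells of the same libraries it stood at 6.71, 2.01 and 10.6 CPM. Tmem212 (ENSMUSG00000043164), a gene of multiciliated cells, stood at 807 (767 to 848), 1891 (1647 to 2160.1) and 2091 (1921 to 2272) CPM. Both were lowest at P5 and lay close together at the 2 adult ages. The radial spoke head gene Rsph1 (ENSMUSG00000024033) was at 889, 1243 and 1085 CPM. Foxj1 (ENSMUSG00000034227), the transcription factor that directs motile cilium formation, was at 716 (678 to 755), 1007 (831 to 1208) and 597 (508 to 697) CPM. Its level showed no single direction over the ages, being highest at 12w and lowest at 24w. Dynlrb2 (ENSMUSG00000034467), a dynein light chain, was at 1253, 1348 and 1569 CPM. Of the 5, Foxj1 was the gene most often without a UMI at the adult ages, being found in 31 of 34 cells at 12w and 54 of 61 at 24w.

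**Figure D1:**
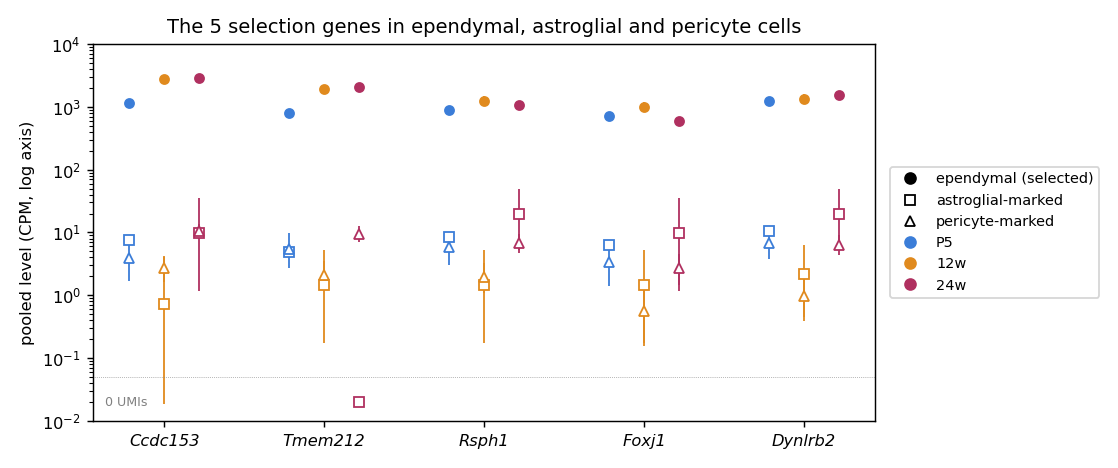
Pooled level (CPM, log axis) of the 5 selection genes at P5, 12w and 24w (colours) in ependymal cells (filled circles), astroglial-marked cells (open squares) and pericyte-marked cells (open triangles), with 95% counting intervals; points below the dotted line are at 0 UMIs. Every filled circle lies above 500 CPM and every open symbol below 20 CPM.

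Cells of 2 kinds served for closer comparison, each picked in the same way from a list of 5 markers and of no other list. Astroglial-marked cells (Slc1a3, Aldoc, Gja1, Aqp4, S1pr1) numbered 5114, 440 and 87, and pericyte-marked cells (Vtn, Rgs5, Kcnj8, Higd1b, Ndufa4l2) numbered 405, 3282 and 2204, with median UMIs of 4212, 2897 and 2274 and of 4702, 1925 and 2054. The ependymal cells had medians of 4778.5, 3489 and 4422 UMIs, and together 1900415, 114255 and 266368 UMIs. Transcripts of pericyte markers were present in the adult ependymal cells: the summed level of the 5 pericyte markers was 416, 1418 and 2395 CPM, with all 5 genes detected at each age, and 10 of 348, 11 of 34 and 49 of 61 cells passed the pericyte list. Barcodes with 10 to 100 UMIs, which hold RNA free in the suspension, gave an upper estimate of free RNA: if all UMIs of these 5 genes were free RNA, it would make up 9.57% of the ependymal UMIs at 12w and 11.01% at 24w. The P5 library was deposited without such barcodes, and its free RNA could not be read. At P5, 77 of 348 cells passed the list of oligodendrocyte precursors or immature neurons (34 of them called doublets, of 56 doublets in all), against 0 of 34 and 0 of 61 in the adult libraries. Passing another list was common for astroglial markers (254, 24 and 39 cells). The libraries shared 98 (P5 and 12w), 63 (P5 and 24w) and 26 (12w and 24w) barcode sequences, none of them among the ependymal cells.

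The defining genes of the neighbouring choroid plexus and of the tanycytes were looked up as a check of the name. Ttr, the main product of the choroid plexus, had 0, 1 and 2 UMIs, and Kl had none. The 5 choroid markers summed to 197, 280.1 and 297 CPM in ependymal and 42.9, 19.8 and 33.8 CPM in other cells. Folr1, a folate receptor of that list, was at 120.0 (105 to 137), 166 (100.1 to 259.7) and 237 (182 to 303) CPM, against 0.668, 0 and 1.02 CPM in other cells. Of the other choroid markers, Enpp2 had 132, 12 and 8 UMIs and Clic6 15, 0 and 6 UMIs. The 6 tanycyte markers summed to 72.6, 70.02 and 135 CPM in ependymal and 13.8, 5.33 and 6.82 CPM in other cells. Rax, Gpr50 and Crym of these had 1, 2 and 4 UMIs at P5 and 0 in both adult libraries, Slc17a8 had 50, 0 and 0 UMIs and Col23a1 16, 0 and 4 UMIs. Both sums were thus higher in ependymal than in other cells at every age, while Ttr, Kl, Rax, Gpr50 and Crym were at or near 0. Scn7a, a sodium channel of that list, was higher in the ependymal cells at every age (34.2, 70.02 and 120.1 CPM). Microglial markers summed to 3.16, 0 and 7.51 CPM.

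Nearly all genes of the motile cilium were higher in ependymal cells than in other cells. Of 11128 genes compared with all other cells (at least 20 UMIs in the ependymal cells, or as many expected from the level in the others), 1455 were at least 2-fold higher in every library, which is 13.1%, and 650 were at least 2-fold lower in every library, which is 5.84%. Of 96 genes of the axoneme and its motors outside the selection genes, 93 could be compared and 90 were higher, with a median log2 ratio of 6.24 for P5, 6.45 for 12w and 6.28 for 24w. The median over all genes compared was 0.02, -0.27 and -0.18. Against the astroglial-marked cells 1414 of 10834 genes were higher, again 13.1%, and 89 of 93 motile cilium genes. These counts follow from a selection by genes of the same programme and were given no test.

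The outer dynein arms were represented by 12 of 12 genes compared that were higher in ependymal cells. Dnah9, a heavy chain of the outer arm, was at 133 (117 to 150.0), 184 (114 to 281) and 158 (114 to 213) CPM, against 1.29, 0.3898 and 1.89 CPM in other cells. Dnah11, another heavy chain of the outer arm, was at 71.6 (60.04 to 84.7), 166 (100.1 to 259.7) and 150.2 (107 to 204) CPM. Its level at both adult ages was above the interval at P5. Among the inner arms 11 of 12 genes were higher. The light intermediate chain Dnali1 was at 259, 403 and 349 CPM, with ratios to other cells of 136, 413 and 172. The heavy chain Dnah12 was at 209 (189 to 230.5), 333 (235 to 457) and 428 (353 to 514) CPM, against 1.07, 0.195 and 1.16 CPM in other cells. The exception, Dnah7c, had 30, 0 and 6 UMIs. It has close copies (Dnah7a and Dnah7b), and the part of shared reads in its counts was not tested.

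Dynein arms are put together in the cytoplasm before they enter the cilium, and 10 of 11 assembly factors were higher. Zmynd10 was at 147, 140.0 and 161 CPM, which is 138, 239.5 and 139 times the level in other cells. Dnaaf3 was at 43.7, 105 and 97.6 CPM and was higher with age, though not by 2-fold at 24w against the smaller set of 249 P5 cells described below. Dnaaf2, the factor that was not higher, was at 36.3, 17.5 and 22.5 CPM in ependymal and 23.4, 21.5 and 16.7 CPM in other cells. Its adult ratios rest on 2 and 6 UMIs.

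For the structures that regulate the beat, every gene compared was higher. All 14 radial spoke genes compared, all 13 central pair genes and all 11 genes of the nexin-dynein regulatory complex were higher. Rsph4a of the spoke head was at 133, 236 and 143 CPM, and Nme5 of the spoke at 304, 455 and 394 CPM. Nme5 was also found in other cells (7.23, 6.04 and 4.94 CPM), and its ratio was 42.04, 75.3 and 79.9. Of the central pair, Spef2 was at 185, 236 and 293 CPM. The adenylate kinase Ak7 was at 190.5 (171 to 211), 350.1 (250.1 to 477) and 342 (275 to 419) CPM, against 1.12, 0.455 and 2.03 CPM in other cells. Iqcg, a subunit of the nexin-dynein regulatory complex, was at 156, 201 and 176 CPM. Inside the doublet microtubules 19 of 20 proteins were represented by higher transcripts. Cfap126 was at 508 (477 to 541), 814 (657 to 997) and 916 (805 to 1038) CPM, and Enkur, which tethers signalling proteins in cilia, at 353, 306 and 413 CPM. Cfap20 was the gene that did not reach 2-fold in every library, at 2.03, 1.84 and 1.73 times the level of other cells.

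**Figure D2:**
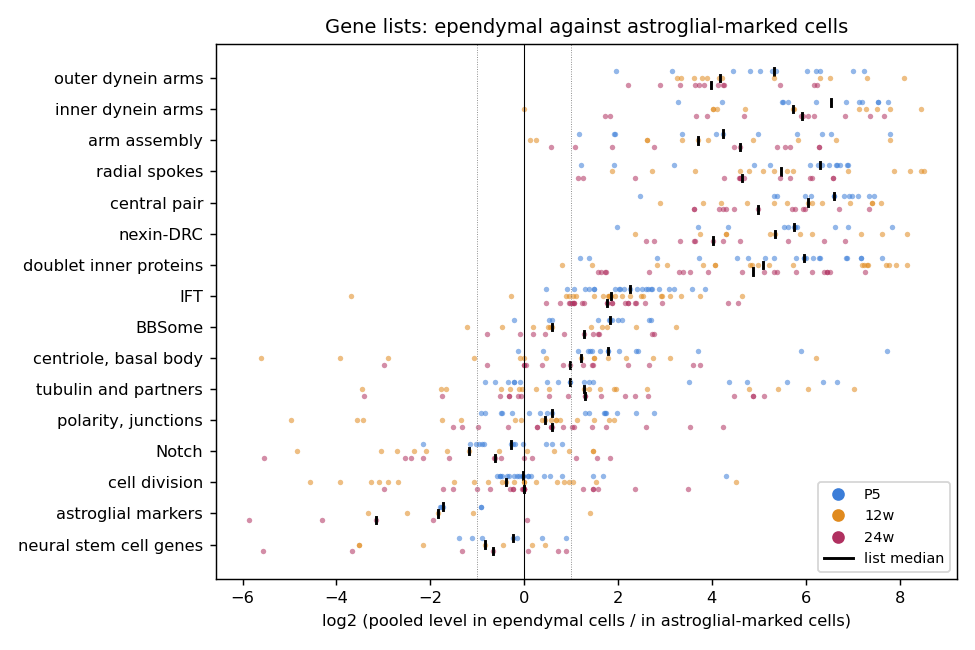
Log2 ratio of the pooled level in ependymal cells to that in astroglial-marked cells for each gene compared (points) in 16 gene lists, at P5, 12w and 24w (colours), with the list median as a black tick and dotted lines at 2-fold. The 7 lists of the motile cilium at the top lie almost wholly to the right, IFT and BBSome lie between them and 0, and the lists of division and Notch genes lie about 0.

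Cell by cell, the 96 motile cilium genes took a median of 1.19% of an ependymal cell's UMIs at P5 (range, 0.0543 to 2.26), and 1.38% (0.692 to 2.10) and 1.41% (0.600 to 2.13) at 12w and 24w. In astroglial-marked cells the medians were 0.0481%, 0.0561% and 0.0570%, and in pericyte-marked cells 0.0387%, 0.0270% and 0.0415%. The share varied most at P5, where the ependymal range overlapped that of the astroglial-marked cells (up to 1.57%). No ependymal cell of the adult libraries was below 0.600%.

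**Figure D3:**
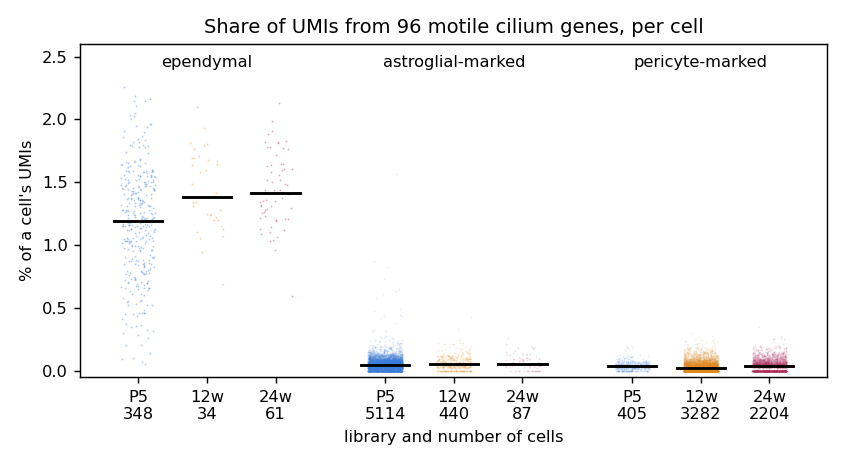
Share of each cell's UMIs (%) that came from the 96 motile cilium genes, for ependymal, astroglial-marked and pericyte-marked cells of each library (1 point per cell, number of cells under each column, black line at the median). The ependymal medians are 1.19%, 1.38% and 1.41%, and the astroglial and pericyte medians are below 0.06%.

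Factors of the RFX family act on an inverted repeat, the X-box, in promoters of ciliary genes, so the proximal promoters of the lists were searched for it. The repeat was spelled GTTNCC, a gap of 0 to 2 bases and GGNAAC, on both strands, in the 250 bases before the start of each RefSeq transcript (GRCm38.p6). It was found in 203 of 32851 promoters (0.618%) and at 196 of 27014 genes (0.726%). Of the 96 motile cilium genes 78 could be matched (81.25%), and 3 of these held it. It was also found at 2 of 19 IFT genes, 1 of 11 genes of the BBSome and its loading and 2 of 26 other genes often listed for ependymal cells. The forkhead word TGTTTAC was present at 3 of the 78 motile cilium genes (3.85%), against 3.54% of all genes. These matches describe the letters only, and no binding was measured. Of the genes with a match, 6 that were also higher in ependymal cells at every age are shown, 5′ to 3′ on the strand of the gene, from 30 bases before the repeat (in capitals) to 30 bases after it or to the transcript start, to show the letters that matched and where they lie. Their likeness is set by the search. They lie at chr4:41507765-41507812 (- strand), chr11:58801961-58802006 (- strand), chr1:90153493-90153566 (- strand), chr16:49699204-49699276 (+ strand), chr9:22002635-22002698 (- strand) and chr6:38381461-38381523 (+ strand).
1110017D15Rik: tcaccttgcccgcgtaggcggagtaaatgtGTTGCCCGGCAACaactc
Fam183b: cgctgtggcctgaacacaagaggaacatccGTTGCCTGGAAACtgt
Iqca: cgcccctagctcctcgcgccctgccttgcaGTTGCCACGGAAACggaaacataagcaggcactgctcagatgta
Ift57: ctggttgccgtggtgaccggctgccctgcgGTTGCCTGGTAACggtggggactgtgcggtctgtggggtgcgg
Ccdc151: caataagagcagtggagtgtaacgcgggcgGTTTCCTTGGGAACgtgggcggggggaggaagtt
Ttc26: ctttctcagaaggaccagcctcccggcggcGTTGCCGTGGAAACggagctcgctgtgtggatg
The repeat ended 5 bases before the start of 1110017D15Rik, 3 before Fam183b, 86 before Iqca, 47 before Ift57, 20 before Ccdc151 and 19 before Ttc26. Mean levels over the 3 libraries ran from 34.7 CPM for Ttc26 and 74.5 for the outer arm docking gene Ccdc151 to 852 for Fam183b and 1318 for 1110017D15Rik. Iqca, of the nexin-dynein regulatory complex, was at 81.6, 193 and 240.3 CPM.

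Intraflagellar transport and the BBSome, which primary cilia of most cells also use, differed less from other cells. Of 23 IFT genes 17 were higher, with a median log2 ratio of 2.06, 1.96 and 2.00. Ift22 was at 275, 306 and 312 CPM, with ratios to other cells of 4.301-fold (3.92 to 4.71), 5.16-fold (3.57 to 7.23) and 7.302-fold (5.65 to 9.35). Ift20 was also well detected in other cells (122, 199 and 261 CPM), and its ratio was 3.89, 2.02 and 1.45. Of 11 genes of the BBSome and its loading 5 were higher, among them Bbs5, Bbs9 and the GTPase Arl13b. Tubulins and their partners were mixed, with 6 of 19 higher and 4 lower. Tubb4b, the beta-tubulin used in motile axonemes, was at 1548, 2206 and 1554 CPM, and its ratio to other cells was 9.22, 9.68 and 6.95. Tppp3, a microtubule bundling protein, was at 1093, 2241 and 1783 CPM. The lower genes were Stmn1, Tubb3, Tubb2b and Tubb5, which are high in growing neurons and dividing cells. Planar polarity orients the tuft of cilia, and of 17 genes of polarity and junctions 3 were higher, a share near the 13.1% of all genes: Celsr1 (80.5, 61.3 and 78.8 CPM), Fzd3 (43.7, 52.5 and 41.3 CPM) and Ezr (414, 350.1 and 364 CPM). Dvl3 was lower.

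Among the transcription factors of the multiciliated programme, 5 of 11 that could be compared were higher in every library, against 13.1% of all genes. Trp73, which acts upstream of Foxj1, was at 36.3 (28.2 to 45.9), 96.3 (48.1 to 172) and 82.6 (51.8 to 125) CPM, against 0.342, 0.3898 and 0 CPM in other cells. Rfx2 was at 67.9, 105 and 75.1 CPM, with ratios of 19.3-fold (15.5 to 24.1), 31.1-fold (15.1 to 59.02) and 16.2-fold (8.76 to 29.1). Myb, which acts early in the programme, was still found at 24w, with 147, 4 and 14 UMIs. Rfx1 was at 24.2, 35.01 and 37.5 CPM, which is 5.06, 5.18 and 3.59 times the level in other cells. Rfx3 did not reach 2-fold at 12w, at 1.67-fold (0.452 to 4.31) on 4 UMIs. Sox9, a factor of glial cells, had ratios of 2.38, 8.89 and 10.1, with a level in other cells of 201, 80.8 and 56.3 CPM. Mcidas and Foxn4 had UMIs at P5 alone (19 and 28).

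Beyond the cilium, 27 of 32 further genes often listed for ependymal cells were higher. Rarres2, which encodes the secreted protein chemerin, was at 1404 (1351 to 1458), 3299.6 (2975 to 3650.1) and 3874 (3642 to 4118) CPM, against 47.2, 406 and 646 CPM in other cells. Mia, another secreted protein, was at 738, 1707 and 1727 CPM, and its ratio to other cells was 40.4, 117 and 216. Dbi, the acyl-CoA-binding protein, was at 20136, 18634 and 19762 CPM in ependymal cells and at 7377, 1817 and 925 CPM in the others. Tm4sf1 did not reach 2-fold at 24w, at 1.68-fold (1.504 to 1.87). For transport across the ependyma, 2 of 17 genes were higher and 3 lower, the share of higher genes being near the 13.1% of all genes. Against astroglial-marked cells 2 of 18 were higher and 8 lower, where 4.46% of all genes were lower. The glucose transporter Slc2a1 was at 163 (145 to 182), 569 (439 to 725) and 604 (515 to 705) CPM. The endocytic receptor Lrp2 was at 21.05, 87.5 and 41.3 CPM, on 40, 10 and 11 UMIs. The water channel Aqp4 was at 377, 569 and 394 CPM. Its ratio to other cells was 0.963, 16.01 and 11.3, 59.4% of the others at P5 having passed the astroglial list. At 12w and 24w, 78.3% and 93.3% of the others passed the pericyte list. The sodium pump subunit Atp1b2 (244, 438 and 375 CPM) was lower than in other cells.

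The 15 genes in no list with the largest ratio in their lowest library included 1700016K19Rik (682, 700.2 and 695 CPM, ratios 243, 1539.7 and 217) and 1700012B09Rik (469.9, 368 and 698 CPM). Dmkn, known from epithelia as dermokine, was at 339 (314 to 367), 350.1 (250.1 to 477) and 372 (302 to 452) CPM, against 1.77, 0.2599 and 1.16 CPM in other cells. The cilium-associated stomatin Stoml3 was at 76.8, 306 and 398 CPM. Krt19, a keratin of simple epithelia, was at 43.1, 61.3 and 26.3 CPM, and the retinol-binding protein Rbp2 at 61.04, 35.01 and 109 CPM. Uox, urate oxidase, had 29, 2 and 24 UMIs. The others of the 15 were 1700007G11Rik, Fam216b, 1700024G13Rik, Ccdc81, Lrrc34, Ttc29, Gm16160 and Slc35g3. Slc35g3 had 21, 3 and 7 UMIs in ependymal cells and 0 UMIs in all other cells of each library. The lowest ratios among genes in no list were those of Nodal (0, 0 and 4 UMIs), Spp1 (0, 0 and 4), Pik3cd (1, 0 and 1), Gm43536 (0, 0 and 1) and Snai1 (0, 0 and 1). Where a count was 0, the ratio rests on the UMIs added. The interval of the ratio reached 1.37 for Nodal and 2.71 for Spp1 at P5 and 1.46 for Pik3cd at 12w. For these 3 genes a lower level in every library is thus not shown. Of the marker lists, 4 of 5 pericyte, 4 of 5 oligodendrocyte precursor and 4 of 5 neuron markers were lower than in other cells in every library, and 0 of 5 astroglial markers were either higher or lower in all of them. Of all genes compared 13.1% were higher and 5.84% lower.

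With age, more genes were called lower than higher in the ependymal cells. These cells held 1900415 UMIs at P5 against 114255 at 12w and 266368 at 24w. The minimum of UMIs for a call was thus reached at a lower CPM at P5 than in the adult cells. This favours calls of lower genes, and whether more genes were lower than higher at equal depth was not tested. Of 9735 genes compared, 275 (2.82%) were at least 2-fold higher at both 12w and 24w than at P5, and 920 (9.45%) were at least 2-fold lower at both, the 2 contrasts sharing the P5 library. The interval of the ratio of the pooled adult cells to P5 was clear of 1 for all 275 and for 701 of the 920. The genes were chosen by their fold in these same counts, so the intervals are no separate support, and they cover counting error only. Of the 920, 189 had no UMI in the 95 adult cells. The median log2 ratio over all genes was -0.17 at 12w and -0.14 at 24w. With the P5 cells that were doublets or passed the precursor or neuron list left out (249 P5 cells remained), 221 of 7791 genes compared (2.84%) were higher and 481 (6.17%) lower, 199 and 442 of them among the first counts. Leaving out every cell that passed another list left 80, 9 and 7 cells, and with these adult cells pooled 48 genes were higher and 759 lower of 3091 compared, 28 and 120 of them among the first counts. In astroglial-marked cells, which come from the same libraries and held up to 6.59% and 7.59% free RNA at 12w and 24w by the upper estimate, 883 of 13090 genes (6.75%) were at least 2-fold higher at both adult ages and 1265 (9.66%) lower. Of the genes called in ependymal cells, 128 of the 233 higher genes that could be compared there were also higher in astroglial-marked cells, and 252 of 899 lower genes were also lower, while 4 and 12 were at least 2-fold off in the opposite direction.

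Calb1, which encodes the calcium-binding protein calbindin, showed one of the widest differences between ages. It was found in 6 of 348 P5 cells, 18 of 34 cells at 12w and 37 of 61 cells at 24w, and its level was 4.74 (2.17 to 8.99), 254 (170.0 to 365) and 293 (231 to 365) CPM. The adult cells as one group stood at 59.4-fold (30.1 to 133) the P5 level. In pericyte-marked cells it was found in 0%, 0.152% and 0.318% of cells and in astroglial-marked cells in 0.176%, 1.14% and 0%, and free RNA by the upper estimate came to 0.333% at 12w and 0.837% at 24w of the ependymal level. The histone gene Hist1h4h, one of a family of near-identical genes whose reads are uncertain, had UMIs in 22 of 348 P5 cells, 19 of 34 cells at 12w and 43 of 61 cells at 24w. It was higher with age in astroglial-marked cells too.

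Other genes that were higher in the adult cells included the small heat shock protein Cryab, at 52.6 (42.8 to 64.0), 1199 (1007 to 1418) and 458 (380.4 to 547) CPM. Cryab was present in 68 of 348 P5 cells, 30 of 34 cells at 12w and 43 of 61 cells at 24w, but 88.6%, 52.9% and 50.2% of pericyte-marked cells also held it. Gsn, gelsolin, which severs actin filaments, was at 28.9, 446 and 608 CPM, and was also higher with age in astroglial-marked cells (8.197, 71.4 and 107 CPM). The protease inhibitor Serpinb1a was at 3.68, 96.3 and 90.1 CPM, with free RNA at 0.171% at 12w and 0.963% at 24w of its level. Kcnmb1, a potassium channel subunit of smooth muscle, was at 5.79, 87.5 and 113 CPM in ependymal cells and at 6.68, 60.2 and 101 CPM in the others. For Vtn, Car4, Mgp, Slc6a20a and Gm13861, also among the 12 largest, free RNA by the same upper estimate could account for over 50% of the level at 12w (Vtn is 1 of the 5 genes that set the estimate, so that its value follows from it), and at each age all 5 were higher in other cells than in ependymal cells. In all, the upper estimate of free RNA was over 50% of the level for 23 of the 275 genes.

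Genes that mark ependymal cells were mostly level or somewhat higher in the adults. Of the 32 further ependymal genes 9 were higher and 1 lower, against 2.82% and 9.45% of all genes. Of the 9, 4 (Acta2, Pltp, Pvalb and Sntn) remained above 2-fold against the 249 P5 cells. Slc2a1 was 3.499 times (2.64 to 4.58) the P5 level at 12w and 3.72 times (3.05 to 4.51) at 24w. Stoml3 was 3.99 times (2.67 to 5.799) the P5 level at 12w and 5.18 times (3.995 to 6.698) at 24w. Both were still above 2-fold against the 249 P5 cells. Of 16 transport genes compared between ages Slc2a1 alone was higher, where 2.82% of all genes were higher and 9.45% lower. Slc4a4, a bicarbonate transporter (log2 ratios of -2.05 and -1.82 at 12w and 24w), and Slco1c1, an organic anion transporter (-2.01 and -2.23), were lower, also against the 249. Ccdc153 (2.45-fold, 2.27 to 2.63 in the pooled adult cells against all P5 cells), Tmem212 (2.52-fold, 2.31 to 2.75) and Rarres2 (2.64-fold, 2.47 to 2.81) were above 2-fold at both adult ages against all P5 cells. Against the 249 they fell below it at 12w, with log2 ratios of 0.92, 0.91 and 0.90 for these 3 genes. At 24w the log2 ratios were 0.99, 1.05 and 1.13. Ccdc153 and Tmem212 were among the genes that chose the cells, so their ratios are a description only. Of 92 motile cilium genes compared between ages, 3 (Dnah11, Dnaaf3 and Iqca) were higher with age and 0 lower, with a median log2 ratio of 0.42 at 12w and 0.45 at 24w. The share of higher genes was near the 2.82% of all genes, of which 9.45% were lower. Against the 249 P5 cells only Iqca of these stayed above 2-fold at both ages, Dnah11 and Dnaaf3 did not, and the radial spoke gene Ropn1l was lower. Of 22 IFT genes and 11 genes of the BBSome and its loading 0 were higher or lower against all P5 cells. The IFT gene Ift140 was lower against the 249.

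**Figure D4:**
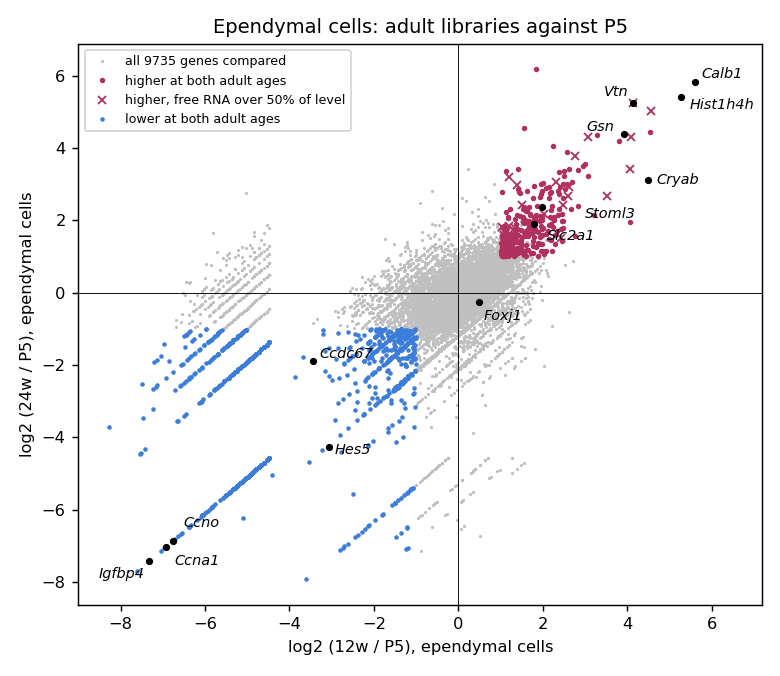
Log2 ratio of the level in ependymal cells at 12w (horizontal) and 24w (vertical) to that at P5 for the 9735 genes compared (grey), with the 275 genes higher at both adult ages (red dots, crosses where the upper estimate of free RNA was over 50% of the level), the 920 lower at both (blue) and named genes in black. Calb1, Hist1h4h, Gsn and Cryab lie at the upper right, Ccna1, Ccno and Igfbp4 at the lower left among genes without adult UMIs, and Foxj1 lies near 0.

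Genes of cell division and of other lineages were among those lower in the adult cells. In the ependymal cells the summed level of the 5 precursor markers was 547, 26.3 and 15.02 CPM and that of the 5 neuron markers 607, 280.1 and 146 CPM. Of 20 division genes compared 12 were lower at both adult ages and 0 higher, and against the 249 P5 cells 5 of 13. Of all genes 9.45% and 6.17% were lower in these 2 comparisons. The 22 genes of the division list, which include the cell cycle inhibitors Cdkn1a, Cdkn1b and Cdkn1c, summed to 1249, 464 and 454 CPM in ependymal cells. Cdkn1a alone held 199 of 2373, 15 of 53 and 35 of 121 UMIs of this sum. The list was also lower with age in astroglial-marked cells, where it summed to 1121, 383 and 335 CPM. Ube2c, which tags mitotic proteins for destruction, had 182, 0 and 0 UMIs, which put the P5 level at least 12.2-fold above that of the adult cells (taking 3 UMIs over both adult libraries as the floor). Cdk1 had 87, 0 and 0 UMIs, at least 5.81-fold. Without the doublets and the cells of the precursor or neuron list, Ube2c was at 44.9 CPM at P5 in place of 95.8 and Cdk1 at 30.8 in place of 45.8. Pdgfra, a precursor marker, had 123, 0 and 0 UMIs and went from 64.7 to 29.0 CPM at P5 in the same way. Igfbp4, which binds insulin-like growth factors, did not go down (151, 0 and 0 UMIs, 79.5 CPM at P5 and 89.7 without those cells), at least 10.1-fold above the adult level. Igfbp4 was also lower with age in astroglial-marked cells (67.0, 2.19 and 0 CPM) and in all other cells (67.7, 7.21 and 11.6 CPM). The Notch target Hes5 was at 225 (204 to 247), 26.3 (5.41 to 76.7) and 11.3 (2.32 to 32.9) CPM, and at 135 CPM in the 249 P5 cells. Also without an adult UMI were Htra3, Rlbp1, Mapt, Dpysl3, Cdca3 and Tac2. In the 249 P5 cells Mapt went from 46.8 to 23.7 CPM, Dpysl3 from 61.6 to 25.5 and Cdca3 from 53.7 to 20.2. Tac2 went from 40.5 to 19.3 CPM and Rlbp1 from 48.9 to 36.1, while Htra3 went from 51.6 to 66.0. All but Htra3 were lower in the P5 ependymal cells than in the other P5 cells.

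Genes of centriole amplification were among those lower in the adult cells, with 3 of the 4 deuterosome genes that could be compared, and 2 of 3 against the 249 P5 cells. Of all genes 9.45% and 6.17% were lower in these 2 comparisons. Ccdc67, the file's name for Deup1, which builds the deuterosome, was at 99.5 (85.8 to 115), 8.75 (0.222 to 48.8) and 26.3 (10.6 to 54.1) CPM, on 189, 1 and 7 UMIs. It was found in 79 of 348 P5 cells, 1 of 34 cells at 12w and 5 of 61 cells at 24w. Ccno, a cyclin-like protein needed for the amplification, had 102, 0 and 0 UMIs and was found in 34 of 348 P5 cells, at least 6.81-fold above the adult level. The counts of 0, taken as 3 cells of the total, allow a share of up to 8.82% of cells with a UMI at 12w and 4.92% at 24w, and the exact binomial limits are 10.3% and 5.87%. Cdc20b, a deuterosome protein, had 8, 0 and 0 UMIs. Of 15 centriole and basal body genes compared 6 were lower with age (Plk4, Stil, Ccdc67, Poc1a, Ccno and Cby1) and 1 was higher, and against the 249 P5 cells 3 of 11 were lower. Cby1, which acts in docking of basal bodies at the membrane, was at 355 (329 to 383), 96.3 (48.1 to 172) and 139 (97.8 to 191) CPM. The gene that was higher, Ccdc78, was at 26.8 (19.98 to 35.3), 158 (93.4 to 249) and 199 (149 to 260.3) CPM, and is also known as a deuterosome protein.

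At least 1 UMI of Ccdc67, Ccno, Cdc20b, Mcidas, Myb or Foxn4 was found in 43.7% (38.4 to 49.1) of the P5 ependymal cells, and in 8.82% (1.86 to 23.7) and 31.1% (19.9 to 44.3) of those at 12w and 24w. In astroglial-marked cells the shares were 1.27%, 0.455% and 0%, and in pericyte-marked cells 0.494%, 0.122% and 0.136%. After each cell was thinned to 1000 UMIs the shares were 16.4%, 2.94% and 8.20%. Most of the 24w share was Myb, which had 1 UMI in each of 14 cells, and without Myb the shares were 26.7%, 2.94% and 8.20%. At least 2 UMIs of the list were found in 18.1%, 5.88% and 1.64%. The intervals at P5 and 24w overlapped for the whole list and did not overlap without Myb (22.1 to 31.7 against 2.72 to 18.1). Thinned and without Myb, the shares at P5 and 24w were 8.91% (6.13 to 12.4) and 4.92% (1.03 to 13.7), with intervals that overlapped. Without the doublets the P5 share was 47.3%, and in the 249 cells 45.4%.

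Within P5, the 249 ependymal cells were set in order of their UMIs of this list: 136 had none, 72 had 1 and 41 had at least 2, with medians of 3877, 4396 and 6160 UMIs. The deeper cells are more likely to hold a UMI, and the part of depth in what follows was not tested. Genes were chosen for display with their values known. Ccna1, cyclin A1, was at 5.37 CPM in the cells with none, 61.1 in those with 1 UMI and 263 in those with at least 2, a ratio of 49.1 (16.1 to 244) between the last and the first. Top2a, needed to untangle chromosomes, was at 10.7 CPM in the cells with none, 36.7 in those with 1 UMI and 139.7 in those with at least 2, a ratio of 13.01 (5.42 to 37.9). The centriole kinase Plk4 was at 3.58 CPM in the cells with none, 3.05 in those with 1 UMI and 35.9 in those with at least 2, on 9 UMIs in the last. The 19 division genes (the list without Cdkn1a, Cdkn1b and Cdkn1c) together had a ratio of 2.41 (2.05 to 2.85) and the 16 centriole genes 2.14 (1.86 to 2.46). Ube2c, at 1.88 (0.904 to 3.86), and Mcm6, at 1.55 (0.872 to 2.73), had ratios nearer to 1, and Mki67 had 2 UMIs in the cells with at least 2 and 8 in those with 1. The cell cycle inhibitor Cdkn1a was at 84.1 CPM in the cells with none, 85.5 in those with 1 UMI and 199.5 in those with at least 2, and Cby1 at 279 CPM in the cells with none, 284 in those with 1 UMI and 746 in those with at least 2. Ccna1, Top2a, Plk4, Cdkn1a and Cby1 were each highest in the cells with at least 2 UMIs of the list.

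The selection and cilium genes differed less over these groups. Foxj1 was at 705 CPM in the cells with none, 782 in those with 1 UMI and 1137 in those with at least 2, a ratio of 1.61 (1.38 to 1.88), and the 96 motile cilium genes together had a ratio of 1.22 (1.17 to 1.27). The ratios of the other selection genes were 0.917 (0.804 to 1.04) for Ccdc153, 0.9502 (0.8098 to 1.11) for Tmem212, 1.35 (1.18 to 1.55) for Rsph1 and 1.42 (1.27 to 1.602) for Dynlrb2, given as a description since these genes chose the cells. Genes lower in the last group than in the first were S100b, Sntn and Acta2. S100b, a calcium-binding protein of mature ependyma and astrocytes, was at 503 CPM in the cells with none, 486 in those with 1 UMI and 231 in those with at least 2. Sntn, of the ciliary tip, was at 148, 223 and 71.8 CPM in the same order, a ratio of 0.484 (0.273 to 0.812). It was thus highest in the cells with 1 UMI. Acta2 had a ratio of 0.417 (0.233 to 0.705). The further ependymal genes together had a ratio of 0.634 (0.618 to 0.6503). In this sum Dbi alone held 23538 of 44038 CPM over the 249 cells. Its level in each group was not read, so its part in the ratio is not known. Also of this list, Mia had a ratio of 0.820 (0.693 to 0.967) and Rarres2 of 0.959 (0.851 to 1.08). The IFT list had a ratio of 1.62 (1.49 to 1.76).

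**Figure D5:**
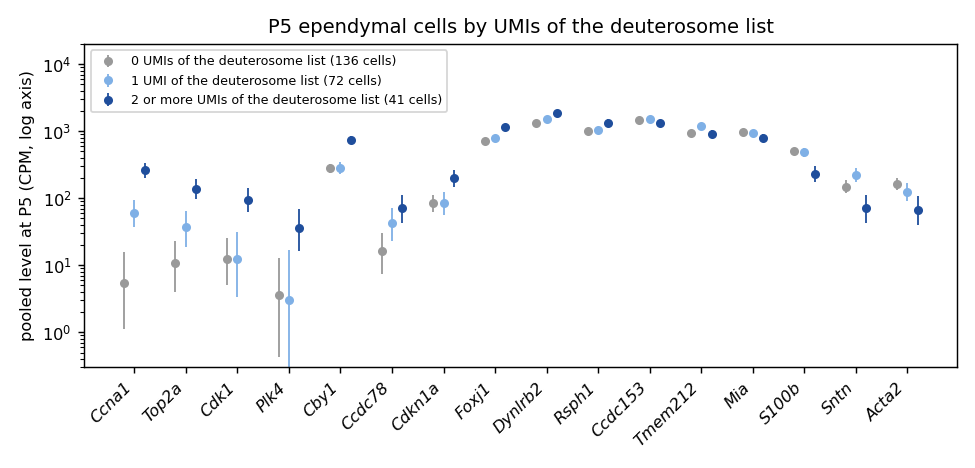
Pooled level (CPM, log axis, 95% counting intervals) of 16 genes in the 249 P5 ependymal cells that were neither doublets nor passed the precursor or neuron list, by UMIs of the 6 deuterosome genes: none (136 cells), 1 (72 cells) and at least 2 (41 cells). Ccna1, Top2a and Cdk1 are highest in the last group, S100b, Sntn and Acta2 are lowest there, and Ccdc153 and Tmem212 lie close together.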

How the data were processed

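Single-cell RNA-seq of EGFP+ DG cells was analysed. The deposited matrices hold UMI counts per gene and barcode, which the authors made with Cell Ranger 2.2.0 on mm10 (Seurat 4.1.0 is also named in the submitters' processing notes). The 12w and 24w files list all barcodes, and the P5 file only selected ones (lowest 1495 UMIs), with 63.02% to 98.18% of UMIs in the cells kept. The scATAC-seq and knockdown files were not used here. Counts were pooled over the cells of a group and library and divided by the pooled total (CPM). A gene was called higher or lower at 2-fold in every library with at least 20 UMIs, with 0.5 UMIs added to each group after scaling to the totals of the 2 groups (0.5 at their mean total), and free RNA was read from barcodes of 10 to 100 UMIs. Doublets were called by Scrublet in scanpy 1.11.5 and left in. Python 3.11.15, numpy 2.4.6, scipy 1.17.1, pandas 2.3.3 and matplotlib 3.10.9 were used. The size rules were tried on simulated data for genes with at least 20 UMIs expected in the smallest library and changes larger than 2-fold. That trial does not cover genes with fewer UMIs. Named genes were the selection genes, the highest genes of each list (4 that met the rule and 2 that did not), all regulators, deuterosome genes and cell type markers, the 15 highest and 5 lowest in no list, and the 12 largest in each direction with age. Members and lists were chosen with earlier results of these data known. Comparison cells had at least 4 UMIs and 3 genes of their list of 5. Alternatives changed the rule, filters, folds, minimum UMIs, comparison cells and scaling, while the set of 249 P5 cells, the list without Myb and the unscaled addition of UMIs were added after seeing the data. Results for 2 genes are not reported here.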

Additional observations from a re-analysis of the deposited data

Results flagged for a closer look

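One gene differed between cell types in its change with age. Tmem212 in the ependymal cells had a log2 ratio to P5 of 1.228 at 12w and 1.374 at 24w, and in astroglial-marked cells of -1.714 and -6.846. The astroglial values rest on 113, 2 and 0 UMIs of the 3 libraries, and Tmem212 was a selection gene, whose level in the astroglial cells was limited by the rule. The difference was not tested.

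For 8 of the named genes the fitted ratio of ependymal to other cells was at least 2-fold above 1 at P5 and at least 2-fold below 1 at both adult ages. The log2 ratios at P5 were 4.928 for Ccna1, 1.632 for Htra3, 1.236 for Flt1, 7.272 for Slc17a8, 6.029 for Ccno, 3.238 for Ly6c1, 1.305 for Cldn5 and 2.81 for Rax. None of these differences was tested, since each age is 1 library. Ccna1, Htra3, Slc17a8, Ccno and Rax had 0 UMIs in the adult ependymal cells, so that their adult values (-4.258 and -2.631 for Ccna1) rest on the UMIs added, which were scaled to the size of the 2 groups, as does that of Flt1 at 12w (0 UMIs). With 0.5 UMIs added to each group without scaling, Ccna1 (1.864 and 1.233), Slc17a8, Ccno (both 4.752 and 3.108) and Rax (3.614 and 1.523) had adult log2 ratios above 0, so that for these 4 no lower adult ratio is shown, and Htra3 was 2-fold lower at 24w (-2.273) but not at 12w (-0.839). Flt1, Ly6c1 and Cldn5 stayed at least 2-fold lower. The P5 ratio of Rax rests on 1 UMI. Flt1, Ly6c1 and Cldn5 mark endothelial cells, whose 5 markers summed to 81.0, 70.0 and 120 CPM in the ependymal cells and 34.1, 438 and 1341 CPM in the others. Slc17a8, a vesicular glutamate transporter that was listed with the tanycyte genes, had 50, 0 and 0 UMIs.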

How the results depend on the processing

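No paired analysis was possible because each age is 1 library and no result comes from a test. The number of ependymal cells at P5 ran from 292 to 380 under the other rules and filters, and was 249 without the doublets and the cells of the precursor or neuron list and 80 without cells passing another list. Genes lower in ependymal cells numbered 182 at 3-fold and 432 with at least 50 UMIs. Genes higher with age numbered 618 at 1.5-fold, 131 with at least 50 UMIs, 419 with the adult libraries pooled and 48 without cells passing another list. Genes lower with age numbered 1676 at 1.5-fold, 476 with at least 50 UMIs, 1548 pooled, 759 without cells passing another list and 481 against the 249 P5 cells. Centred on the median they were 365 higher and 774 lower, with free RNA subtracted 262 and 1179, and with 0.5 UMIs added to each group without scaling 296 and 708, where genes higher and lower in ependymal cells numbered 1593 and 468. The deuterosome share was 16.38% at P5 and 8.197% at 24w after thinning, and 26.72% and 8.197% without Myb. Against astroglial-marked cells these genes changed direction (smallest log2 ratio over the libraries): Rgs5 1.244, Mgp 1.366, Kcnj8 2.013, Cspg4 2.175, Slc6a20a 1.319, Vtn 1.232 and Higd1b 2.429. With free RNA subtracted, the age ratio of Kcnj8 became -5.165 and that of Ndufa4l2 -1.994, both among the 5 genes that set the subtracted share, so that these values follow from its construction. The same holds for Rgs5 and Higd1b, which had not been called. Their log2 ratios at 12w and 24w turned from above 0 to -1.83 and -8.59 (Rgs5) and -1.05 and -7.81 (Higd1b). Without cells passing another list the age ratio of Sox11 was 1.132, and the cause of this and of the changes against astroglial-marked cells was not tested. Of the other single-gene values, 1546 with age and 1280 against other cells kept their call or their lack of one, while 46 and 70 lost a call and 74 and 55 gained one. Calls used the fold of each setting, and direction was checked only for genes called in the main setting. In the 34 and 61 adult cells 3 UMIs stand for 26.3 CPM at 12w and 11.3 CPM at 24w.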

Other observations

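Notch genes hold neural stem cells in an undifferentiated state. Of 13 compared with all other cells 0 were higher and 6 lower in every library, against 13.1% and 5.84% of all genes. At 12w and 24w, 78.3% and 93.3% of these other cells passed the pericyte list. Of 12 compared with astroglial-marked cells 0 were higher and 1 lower, where 13.1% and 4.46% of all genes were. Hes1 was at 176, 123 and 206 CPM in ependymal and 167, 428 and 719 CPM in other cells. Notch3, a receptor of pericytes, was at 22.1, 43.8 and 33.8 CPM and 46.03, 226 and 379.9 CPM. Of 7 neural stem cell genes compared, 1 was higher and 2 were lower, against 13.1% and 5.84% of all genes, and against astroglial-marked cells 0 were higher and 2 lower. Id4, an inhibitor of differentiation that was the higher one, was at 384 (356 to 412), 814 (657 to 997) and 698 (602 to 806) CPM, with ratios of 2.24, 3.45 and 4.81. Nes, whose promoter drives the EGFP that was sorted on, was at 71.04 (59.6 to 84.1), 114 (60.6 to 195) and 154 (110.5 to 209) CPM in ependymal cells and 35.6, 63.9 and 103 CPM in the others, 1.99-fold (1.66 to 2.37), 1.78-fold (0.945 to 3.06) and 1.49-fold (1.06 to 2.04). Haemoglobin genes, whose copies share reads, summed to 80.5, 0 and 60.1 CPM in ependymal cells and 477, 26.4 and 2668 CPM in other cells.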
